A study of Mus musculus with 11 samples.

Results

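HA-tagged MacroH2A2 (HA-Macro) was compared between mouse embryonic stem (ES) cells and mouse embryonic fibroblasts (MEFs) after 12 hours of induction, using 1 ChIP-Seq library from each cell type, 2 of the 11 libraries of the series. Both cell types carry the M2rtTA transactivator at ROSA26 and, downstream of Col1a1, HA-MacroH2A2 under the control of TetO, on the 129 X C57bl/6 background of the KH2 ES cell line, and both received doxycycline (Dox) at 2 μg/ml. The ES cells were a targeted clone grown on feeder MEFs, which were depleted by pre-plating before induction. The MEFs were grown from chimeric embryos made with such ES cells and selected for the transgenic cells with puromycin. Chromatin was precipitated with an antibody against HA. The ES time points were split from 1 culture, and the MEFs are described as induced in a similar way, without stating whether their time points shared a culture. A library of HA-Macro ES cells without Dox served as the background in ES cells, and a no-Dox MEF library was not analysed here. The paper reports trace promoter signal without Dox. It attributes this to likely leaky expression of the tagged protein or, alternatively, to artefacts at open chromatin. ChIP measures no RNA, so the labelled cell types could not be checked against marker expression.

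MacroH2A is a histone H2A variant with a large globular macro domain attached to its C-terminal end. It replaces conventional H2A in a subset of nucleosomes, is best known for its accumulation on the inactive X chromosome, and is generally associated with repressed chromatin and with the stability of the differentiated state. Mouse macroH2A is encoded by H2afy (macroH2A1) and H2afy2 (macroH2A2), and a pulse of tagged protein marks the places where it was deposited during the pulse.

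The ES library held 18829306 mapped intervals and the MEF library 20541627. Identical intervals made up 6.00% and 3.27% of them, and each distinct interval was counted once by its midpoint, leaving 17153206 and 19279472 reads on chromosomes 1 to 19. Levels are in RPM, reads scaled to a total of 1000000 on these chromosomes, so that they compare the share of the signal that falls at a place, not its amount per cell, and more cells carrying the protein cannot be told apart from more protein per cell. With 1 library per cell type no spread between replicates could be measured and no test was made. The 95% intervals are exact (Clopper-Pearson) binomial intervals and cover counting error only. A place was called MEF-higher or ES-higher where log2(MEF/ES), with 1 read added to each count, was at least 1 or at most -1, a 2-fold difference.

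The genome was first divided into 100 kb tiles. Of 24731 tiles, 252 with the most no-Dox reads were discarded and 721 with under 100 no-Dox reads were left out, which kept 23758. Between them HA-Macro differed well beyond counting error: the SD of log2(MEF/ES) was 0.46, where counting alone gives 0.08, and the 5th and 95th percentiles were -0.68 and 0.81. MEF-higher tiles numbered 470 (1.98% of tiles) and ES-higher tiles 126 (0.53%), or 733 and 55 after centring on the median tile. The tile with the largest excess in MEFs stood at 1.72 and that with the largest excess in ES cells at -1.67, around a median of -0.08.

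By the choice of tiles the 12 hour levels differ, and the 3 and 6 hour libraries did not enter the choice. In MEF-higher tiles the median was 29.0, 30.1 and 30.7 RPM in ES cells at 3, 6 and 12 hours and 66.9, 66.4 and 68.2 in MEFs. Over all tiles the 12 hour medians were 37.4 and 37.3, and the MEF-higher tiles had 37.9 in the no-Dox library. The level in MEFs was above the no-Dox level in 470 of these 470 tiles, whereas that in ES cells was above it in 87. Among all 23758 tiles the counts were 9984 for MEFs and 9848 for ES cells, and the 12 hour counts partly restate the choice of tiles, also for the ES-higher ones. The ES-higher tiles were the opposite case, with medians of 42.7, 53.0 and 53.5 in ES cells, 25.8, 26.3 and 24.4 in MEFs and 42.3 without Dox. At 12 hours 104 of the 126 lay above the no-Dox level in ES cells but 1 in MEFs.

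**Figure D1:**
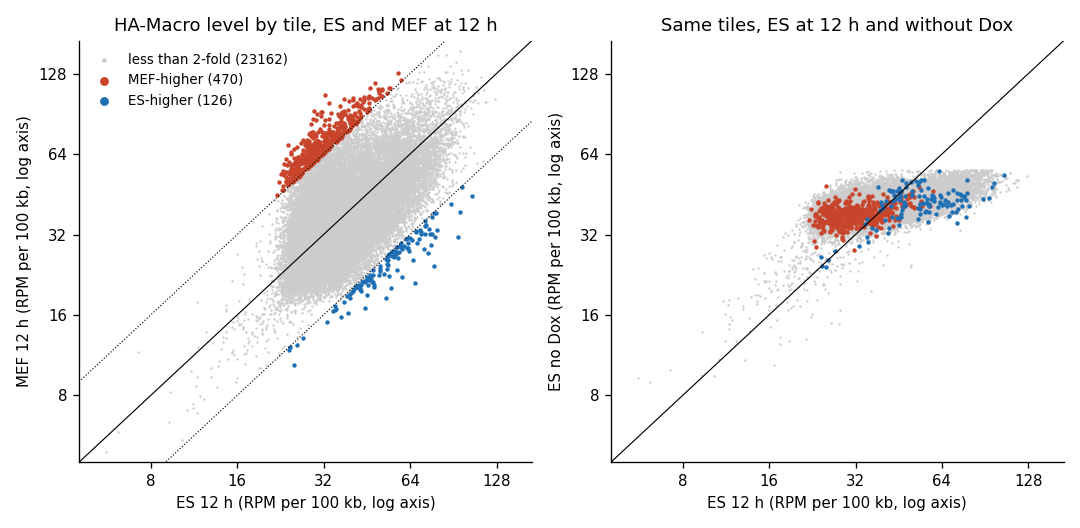
Each point is a 100 kb tile, placed by its RPM in ES cells at 12 hours (x axis, log scale) and in MEFs at 12 hours (left) or in ES cells without Dox (right). The 470 MEF-higher tiles lie above the upper dotted line of a 2-fold difference and the 126 ES-higher tiles below the lower one. The solid line marks equal levels, and on the right the MEF-higher tiles are seen to sit mostly at or below the no-Dox level in ES cells.

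The differences extended over neighbouring tiles. log2(MEF/ES) of adjacent tiles correlated with r = 0.711 over 23580 pairs, a description in which neighbours share domains and base composition. Of the MEF-higher tiles, 275 (58.5%) touched another MEF-higher tile, and of the ES-higher tiles 41 (32.5%) touched another ES-higher one. Joined across gaps of at most 1 tile, they formed 260 MEF-higher loci, the longest of 1500 kb, and 85 ES-higher loci, the longest of 1000 kb. Single tiles made up 161 and 65 of these loci.

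Other libraries read at the same tiles mostly had the same direction. At 6 hours 470 of 470 MEF-higher tiles had more signal in MEFs (median log2 of 1.13) and 126 of 126 ES-higher tiles had more in ES cells (-0.97), where 45.0% and 55.0% of all tiles lay above and below 0. At 3 hours the counts were also 470 and 126, with medians of 1.19 and -0.72, where 51.5% and 48.5% of all tiles lay above and below 0. In the libraries made with an antibody against MacroH2A2 itself, which combine 2 replicates per cell type according to their labels and whose labels do not give a Dox state, 470 of the MEF-higher tiles were above 0 with a median of 0.63, and 119 of the ES-higher tiles were below 0 with a median of -0.41, against 52.5% and 47.5% of all tiles. Few of them reached a 2-fold difference there, 9 of the MEF-higher and 2 of the ES-higher tiles, of 94 and 31 among all tiles. In the same direction 352 and 58 did at 6 hours, and 386 and 35 at 3 hours.

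The locus with the largest summed difference spanned chr4:63300001-64800000 (mm9, as are all coordinates here) and held 4 protein-coding genes. These are Tnfsf15 and Tnfsf8, which encode ligands of the TNF family, Tnc, which encodes the matrix protein tenascin-C, and Pappa, which encodes a protease that cuts IGF-binding proteins. In ES cells its level was 36.6 RPM per 100 kb without Dox, then 27.5, 27.0 and 27.8 at 3, 6 and 12 hours of induction. In MEFs it was 61.2, 62.0 and 63.1 at the same time points. The MEF values thus lay above every ES value, log2(MEF/ES) at 12 hours was 1.18 (95% interval 1.14 to 1.22), and 13 of its 15 tiles were past the fold.

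The second locus, chr6:116700001-117600000, contained Cxcl12, the gene of a chemokine made by stromal cells. Its level rested at 34.5 RPM per 100 kb in ES cells and 86.0 in MEFs, with a log2 ratio of 1.32 (1.27 to 1.36). The ninth, chr16:92700001-93400000, held the start of Runx1, a transcription factor of blood cell development, at 43.9 in ES cells and 98.2 in MEFs (1.16, 1.11 to 1.21). Nt5c1b, a cytosolic nucleotidase gene, and Rdh14, a retinol dehydrogenase gene, lay in the seventh at chr12:9800001-10600000, with 26.5 and 59.9.

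Long stretches without any protein-coding TSS made up much of the rest. Those at chr3:39000001-40100000 (29.2 in ES cells, 60.4 in MEFs), chr4:55700001-56700000 (34.0 and 73.2), chr16:86200001-87100000 (28.8 and 62.2) and chr2:117300001-117900000 (31.4 and 78.9) held none, nor did a locus of 800 kb on chromosome 18 (32.6 and 66.8). The remaining one, at chr14:23100001-24000000, held the start of Gm5670 and the larger part of 1700112E06Rik (30.3 and 73.4). The 10 loci covered 9200 kb with 10 protein-coding TSSs between them. In each of the 10 the MEF signal was also higher at 3 hours, at 6 hours and with the antibody against MacroH2A2, where the log2 ratios ran from 0.53 to 0.91.

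**Figure D2:**
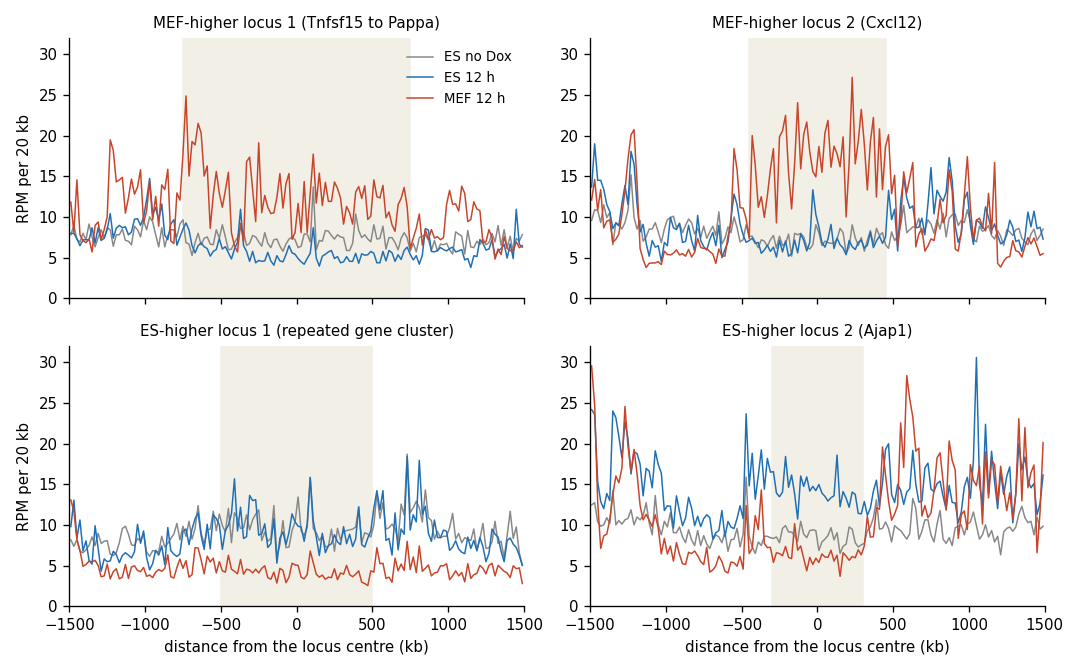
RPM in bins of 20 kb (y axis) against the distance from the centre of each locus in kb (x axis), for the first and second MEF-higher loci (top) and ES-higher loci (bottom), with the locus shaded. Over the top loci the MEF line lies mostly above the ES and no-Dox lines. At the bottom left the ES line follows the no-Dox line and the MEF line runs below both, and at the bottom right the ES line lies above both others.

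Of the first 10 ES-higher loci, 6 lay in clusters of repeated genes and 4 outside such clusters, a division made after their values were seen. The second by summed log2, chr4:152700001-153300000, contained Ajap1, whose protein sits at adherens junctions. Its level in ES cells was 42.8 RPM per 100 kb without Dox, then 45.1, 61.0 and 70.8 at 3, 6 and 12 hours of induction, and in MEFs 33.2, 31.1 and 31.0. The ES level at 12 hours was therefore above both the no-Dox level and the MEF level (log2 ratio -1.19, -1.25 to -1.14), and the ratio was smaller at 3 hours, at -0.44.

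Similar values were found at chr5:128700001-129300000, which held Fzd10 (a Wnt receptor), Piwil1 (a piRNA-binding protein of the male germ line) and parts of Rimbp2 (a presynaptic scaffold) and Tmem132d, with 38.2 RPM per 100 kb without Dox, 63.0 in ES cells and 30.9 in MEFs. At chr5:26900001-27200000, upstream of and into Dpp6 (an auxiliary subunit of potassium channels), the levels were 42.3, 52.6 and 21.3. At chr5:117200001-117500000 they were 41.8, 68.7 and 26.6, with a log2 ratio of -1.37 (-1.46 to -1.28).

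In the 6 clusters of repeated genes the ES level was highest at 3 hours in all but the last of them. The first ES-higher locus, chr13:65500001-66500000, holds Gm gene models and Vmn2r pseudogenes, with 46.3 RPM per 100 kb without Dox, 59.2, 53.2 and 45.9 in ES cells at 3, 6 and 12 hours, and 22.1, 22.4 and 20.6 in MEFs. The clusters at chr13:61800001-62500000 (around Zfp808), chr7:49800001-50300000 (Vmn2r62 and Vmn2r63), chr2:175500001-175900000, chr2:177000001-177300000 and chr2:177600001-177900000 (Etohi1 and Zfp931) stood at 27.7 to 47.8 without Dox, up to 53.0 in ES cells at 3 hours and 28.7 to 45.7 at 12 hours, with 13.1 to 22.0 in MEFs at 12 hours. Reads that fit several places were assigned to 1 of them at random by the authors in the HA libraries. The antibody against MacroH2A2 gave 0 RPM at chr2:175500001-175900000, and 3.72 in ES cells and 3.28 in MEFs at the first locus, where the median tile had 38.4 and 39.8. Such tiles, with under 25% of the median anti-MacroH2A2 signal, were 28 of the 126 ES-higher tiles, 0 of the 470 MEF-higher ones and 1.76% of all tiles, and the part of read assignment in their ES excess was not tested.

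Gene content set the MEF-higher tiles apart, while the ES-higher tiles were closer to all tiles. Among MEF-higher tiles 409 (87.0%) held no protein-coding TSS, against 61 (48.4%) of ES-higher tiles and 56.8% of all tiles. The MEF-higher share was 3.03% of tiles without a TSS, 0.28% with 2 and 0.27% with 6 or more. For ES-higher tiles the shares were 0.45%, 0.76% and 0.53%, without a steady trend. The median log2(MEF/ES) was 0.04 in the 13487 tiles without a TSS and -0.11, -0.26, -0.32, -0.38, -0.37 and -0.39 in tiles with 1, 2, 3, 4, 5 and 6 or more. ES levels went up at each step, from a median of 32.6 RPM without a TSS to 59.5 with 6 or more. MEF levels were 34.8 without a TSS, 40.8 with 1, 39.2 with 3 and 45.6 with 6 or more. The no-Dox level went from 39.6 to 47.4 over the same groups.

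HA-Macro followed base composition more closely in ES cells than in MEFs. Across tiles, the log2 level correlated with GC content with r = 0.846 in ES cells, 0.580 in MEFs and 0.336 without Dox, which are descriptions over tiles that share chromosomes. With anti-MacroH2A2 r was lower, at 0.469 in ES cells and 0.282 in MEFs. MEF-higher tiles were most frequent at intermediate GC content, at 2.97% of tiles in the third quintile (40.3% to 42.6% GC) and 1.33% and 0.821% in the lowest and highest quintiles. Within each GC quintile tiles without a TSS had the larger log2 ratio, for example 0.12 against -0.24 for tiles with one in the third quintile. Amplification and sequencing can depend on GC content, and its part in the difference was not tested. By chromosome the medians went from -0.26 on chromosome 7 to 0.06 on chromosome 3, the share of MEF-higher tiles from 0.348% on chromosome 19 to 3.16% on chromosome 12, and that of ES-higher tiles from 0% on chromosomes 3 and 19 to 1.47% on chromosome 13.

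**Figure D3:**
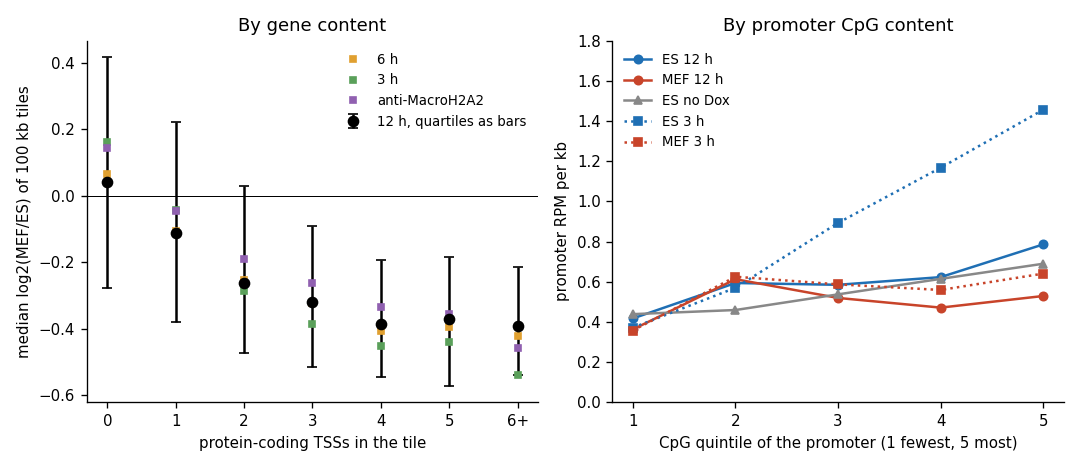
Left, median log2(MEF/ES) of 100 kb tiles (y axis) by the number of protein-coding TSSs in the tile (x axis), with quartiles as bars at 12 hours and the medians of the other libraries as squares. The 12 hour median goes from 0.04 without a TSS to -0.39 with 6 or more. Right, summed promoter RPM per kb (y axis) by CpG quintile (x axis), where the ES line at 12 hours lies above the MEF line in every quintile but the second and farthest above it in the richest.

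Gene bodies, taken from the first to the last base of the 21418 annotated protein-coding genes with exons and introns together, leaned towards ES cells. Of them 672 started in discarded tiles and 3646 had under 50 reads in the 2 libraries, which left 17100 with a median log2(MEF/ES) of -0.42. ES-higher genes numbered 732 (4.28%) and MEF-higher genes 178 (1.04%), which became 81 and 849 after centring on the median gene. The longest genes were closer to equal, without a steady trend among shorter ones. The median was -0.39 for genes under 10 kb, -0.48 for 10 to 30 kb and -0.46 for 30 to 100 kb. It was -0.28 for 100 to 300 kb and -0.02 for the 503 genes of 300 kb or more. Genes under 10 kb held 124 of the MEF-higher and 434 of the ES-higher bodies (2.79% and 9.75% of the genes of that length).

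The clearest MEF-higher gene body was Adamts16, a secreted metalloprotease gene at chr13:70866680-70980689. It held 492 reads without Dox, 538, 566 and 622 in ES cells at 3, 6 and 12 hours, and 1147, 1160 and 2177 in MEFs. In RPM per kb this is 0.318 in ES cells and 0.990 in MEFs at 12 hours (log2 ratio 1.64, 1.51 to 1.77), with ratios of 1.71 at 6 hours and 1.70 at 3 hours. Every MEF level was above every ES level.

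The other 9 of the 10 bodies whose interval lay farthest above 0 were of several kinds. Adamtsl2 (log2 ratio 1.48, 1.28 to 1.70) and Dbh (1.70, 1.45 to 1.97), the gene of the enzyme that makes noradrenaline, are neighbours at chr2:26934899-26964501 and chr2:27020753-27038720. Col15a1, the gene of a basement membrane collagen, had 0.413 RPM per kb in ES cells and 1.06 in MEFs (1.36, 1.24 to 1.48). Pappa2, a relative of Pappa, had 0.263 and 0.668 over its 246 kb (1.34, 1.24 to 1.44). Tnfsf15 (1.61), Tlr12 (2.00), a Toll-like receptor gene, Kcnv2 (1.60), a potassium channel subunit gene, Zfp474 (1.59) and 4921510H08Rik (2.14) completed the 10. The 10 were above 0 at 6 hours (1.04 to 1.96), at 3 hours (1.19 to 2.47) and with anti-MacroH2A2 (0.41 to 0.99). Of all bodies 23.6%, 28.6% and 18.5% were above 0 in these libraries.

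On the ES-higher side stood Mocos, the gene of molybdenum cofactor sulfurase. Its level was 0.540 RPM per kb without Dox, 1.84 in ES cells at 12 hours and 0.608 in MEFs, a log2 ratio of -1.60 (-1.74 to -1.46) with 1512 and 561 reads. Spic, a transcription factor gene of the macrophage lineage, had 0.386 without Dox, 1.16 in ES cells and 0.385 in MEFs (-1.57, -1.99 to -1.20), and Letmd1 had 0.456, 1.01 and 0.320 (-1.64, -2.10 to -1.24). In these genes the MEF level was near or below the no-Dox level of ES cells.

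Lgals1, the gene of galectin-1, an abundant protein of fibroblasts, had 61 reads in ES cells and 18 in MEFs (-1.87, -2.78 to -1.15). The lymphocyte receptor gene Slamf6 stood at -1.53 (-1.85 to -1.23), and 2610203C20Rik, Kctd11, 1700028J19Rik, Zscan5b and Smr3a between -2.32 and -1.55. The 10 were below 0 in the 6 hour, 3 hour and anti-MacroH2A2 libraries, where 76.4%, 71.4% and 81.5% of all bodies were, although close to 0 in single cases, such as -0.01 for 1700028J19Rik at 6 hours and -0.05 for Smr3a at 3 hours.

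The gene of the transgene cDNA and the gene beside the transgene were both lower in MEFs. H2afy2 had 517 reads in ES cells and 331 in MEFs over its body (log2 ratio -0.81, -1.02 to -0.61), and Col1a1, the gene of the main fibrillar collagen of fibroblasts, 258 and 128 (-1.17, -1.50 to -0.87). With anti-MacroH2A2 the ratios were -0.73 and -1.49.

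Promoters, taken as 600 bp before to 600 bp after the TSS, were shallower. Those with at least 20 reads in the 2 libraries numbered 11498, with a median of 15 reads in ES cells and 14 in MEFs. Counting error alone gives an SD of 0.54, and the SD found was 0.85. ES-higher promoters numbered 2206 (19.2%) and MEF-higher promoters 825 (7.18%), around a median of -0.28. Centred on that median they were 1251 and 1508. Of the 1041 promoters with at least 50 reads, 43 were ES-higher (4.13%) and 173 MEF-higher (16.6%), so that the balance of the 2 directions depended on the minimum required. This minimum applied to the reads of both libraries together, and a promoter could pass it through the library where it is high. At 6 hours 90.5% of the ES-higher promoters were again below 0, against 62.5% of all promoters, and 83.0% of the MEF-higher ones above 0, against 37.5%. With anti-MacroH2A2, 93.3% of the ES-higher promoters were below 0, against 82.1% of all, and 43.3% of the MEF-higher ones above 0, against 17.9%, so that most MEF-higher promoters had the other direction there.

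CpG dinucleotides, which mark the CpG islands of housekeeping and developmental genes, separated the promoters. With promoters outside the discarded tiles divided into quintiles by CpG content and their reads summed, the log2 ratio was -0.20 in the poorest quintile, 0.05 in the second, -0.17 in the third, -0.40 in the fourth and -0.57 in the richest. In the richest quintile the level was 0.689 RPM per kb without Dox, 0.786 in ES cells and 0.529 in MEFs. At 3 hours the same promoters had 1.46 in ES cells and 0.640 in MEFs, a log2 ratio of -1.19 that was larger than at 12 hours.

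Single promoters serve as examples. The windows below run from 250 bases before to 50 bases after the TSS on the strand of the gene, read from the mm9 reference, with CG in capitals. CG reads the same on both strands, and 95.1% of the 21413 windows of this kind held at least 1, with a median of 12. The median was 22 in ES-higher promoters, 8 in MEF-higher ones and 14 in all promoters kept. The windows shown were chosen after their values were seen, 2 in each direction from the 10 clearest. Windows were read only for Tdgf1, Neurod1 and Galnt9, and for Plcb4, Cnnm2 and Hmgn1. The 2 shown have the fewest and the most CG of those read, not of the 10. Olfr1328, among the ES-higher 10, held 7 CpG in its promoter as counted. The 12 CG of Plcb4 equal the median of all windows, and its promoter as counted held 113 CpG. Tdgf1 (chr9:110848613-110848912, minus strand, 7 CG) and Galnt9 (chr5:110973114-110973413, plus strand, 40 CG) are MEF-higher, and Plcb4 (chr2:135484497-135484796, plus strand, 12 CG) and Hmgn1 (chr16:96349287-96349586, minus strand, 36 CG) are ES-higher.
Tdgf1: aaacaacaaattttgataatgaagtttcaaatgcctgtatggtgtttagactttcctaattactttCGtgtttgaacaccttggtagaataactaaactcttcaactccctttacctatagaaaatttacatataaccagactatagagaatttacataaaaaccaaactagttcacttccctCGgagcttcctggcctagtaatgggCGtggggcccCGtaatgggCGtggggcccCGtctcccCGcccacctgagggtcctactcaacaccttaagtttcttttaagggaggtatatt
Galnt9: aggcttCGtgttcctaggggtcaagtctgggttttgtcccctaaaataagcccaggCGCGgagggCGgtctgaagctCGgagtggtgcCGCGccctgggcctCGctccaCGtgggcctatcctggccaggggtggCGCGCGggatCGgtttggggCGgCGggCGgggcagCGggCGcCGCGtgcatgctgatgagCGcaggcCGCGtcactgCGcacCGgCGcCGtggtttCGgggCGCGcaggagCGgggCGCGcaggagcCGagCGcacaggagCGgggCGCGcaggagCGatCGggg
Plcb4: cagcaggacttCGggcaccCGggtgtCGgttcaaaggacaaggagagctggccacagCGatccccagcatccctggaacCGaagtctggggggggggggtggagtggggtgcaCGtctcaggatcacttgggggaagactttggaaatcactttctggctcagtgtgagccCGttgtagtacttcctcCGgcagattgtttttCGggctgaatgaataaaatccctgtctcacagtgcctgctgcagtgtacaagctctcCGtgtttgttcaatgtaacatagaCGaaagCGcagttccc
Hmgn1: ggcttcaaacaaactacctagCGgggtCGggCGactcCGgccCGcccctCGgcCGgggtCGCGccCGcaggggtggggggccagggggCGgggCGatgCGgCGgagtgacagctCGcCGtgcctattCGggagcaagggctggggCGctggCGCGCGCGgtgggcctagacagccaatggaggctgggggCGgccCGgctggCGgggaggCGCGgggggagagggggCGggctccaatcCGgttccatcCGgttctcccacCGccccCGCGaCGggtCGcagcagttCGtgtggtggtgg
The range of CG counts among these 4 follows from their choice.

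Tdgf1 encodes Cripto, a co-receptor of Nodal made by pluripotent cells. Its promoter held 6 reads without Dox, 17, 9 and 4 in ES cells at 3, 6 and 12 hours, and 15, 11 and 32 in MEFs (log2 ratio at 12 hours 2.55, 1.34 to 4.79). Galnt9, the gene of a glycosyltransferase, held 9 reads without Dox, 22, 19 and 13 in ES cells and 27, 48 and 86 in MEFs (2.47, 1.71 to 3.52). In RPM per kb these are 0.632 in ES cells and 3.72 in MEFs for Galnt9, the highest MEF level of the 10.

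The other MEF-higher promoters of the 10 were those of Gm5533, Aire (a regulator of self-tolerance in the thymus), Neurod1 (a transcription factor of neurons and endocrine cells), Gm10152, Actg2 (smooth muscle actin), Abcg5 (a sterol transporter), Cerkl and Slc25a31 (the ADP/ATP carrier of germ cells), with log2 ratios from 2.31 to 3.29. Neurod1 and Cerkl start close to each other and share their reads. In 9 of the 10 the ES level at 12 hours was below the no-Dox level, with 2 to 13 reads, so that the ratios rest on few ES reads. The 10 were above 0 at 6 hours (0.03 to 2.26), and at 3 hours 8 were, where 37.5% and 36.9% of all promoters were above 0.

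Among the ES-higher promoters, Plcb4, a phospholipase C gene, held 9 reads without Dox, 38, 24 and 26 in ES cells at 3, 6 and 12 hours, and 1, 3 and 2 in MEFs (-3.34, -6.99 to -1.87). Hmgn1, the gene of a nucleosome-binding protein, held 19 without Dox, 29, 21 and 24 in ES cells and 10, 5 and 2 in MEFs (-3.23, -6.88 to -1.74). Low MEF counts at 12 hours are what the 10 were chosen for, and the 1 to 5 MEF reads limit the precision of the ratios.

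The group also held Cnnm2 (a gene of magnesium transport, 30 and 3 reads, -3.12, -5.85 to -1.81), Tcea1 (the elongation factor TFIIS, 21 and 1 reads, -3.63, -9.93 to -1.92), Pprc1 (a coactivator of mitochondrial genes, 33 and 5 reads, -2.67, -4.61 to -1.53), Cdca7, Zfp174, Esyt2, Fbxl12 and Olfr1328. These promoters as counted held a median of 98 CpG in these 10 and 43 in the 10 MEF-higher ones, with ranges of 7 to 138 and 14 to 105 that overlap. The 10 were below 0 at 6 hours, at 3 hours and with anti-MacroH2A2, where 62.5%, 63.1% and 82.1% of all promoters were.

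Averaged over 20746 protein-coding TSSs, HA-Macro formed a peak just downstream of the TSS that was lower in MEFs. Within 600 bp of the TSS the log2 ratio over the level from 4 to 2 kb upstream was 0.19 in ES cells, 0.08 in MEFs and 0.33 without Dox. The highest bin of 50 bp was centred at 175 bp in ES cells (0.63) and 125 bp in MEFs (0.41), and the lowest lay upstream, at -125 bp (-0.26) and -275 bp (-0.21). The no-Dox library also had its highest bin at 175 bp (0.68). At 12 hours neither cell type thus exceeded the no-Dox value. The 3 hour values, 0.80 in ES cells and 0.27 in MEFs, and the 6 hour values, 0.43 and 0.22, were higher.

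The CpG-richest and CpG-poorest quintiles of TSSs were profiled separately. At the richest, within 600 bp, the ratio was 0.46 in ES cells, 0.06 in MEFs and 0.66 without Dox, with highest bins of 1.06, 0.53 and 1.03. From 2 to 4 kb downstream, inside the genes, the level lay below the upstream level by more in MEFs (-0.45) than in ES cells (-0.25), where the no-Dox library stood at 0.06. At the CpG-poorest quintile the cell types ran together, at 0.09 and 0.10 within 600 bp, with highest bins of 0.38 and 0.43, where the no-Dox library had 0.06 and 0.18.

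**Figure D4:**
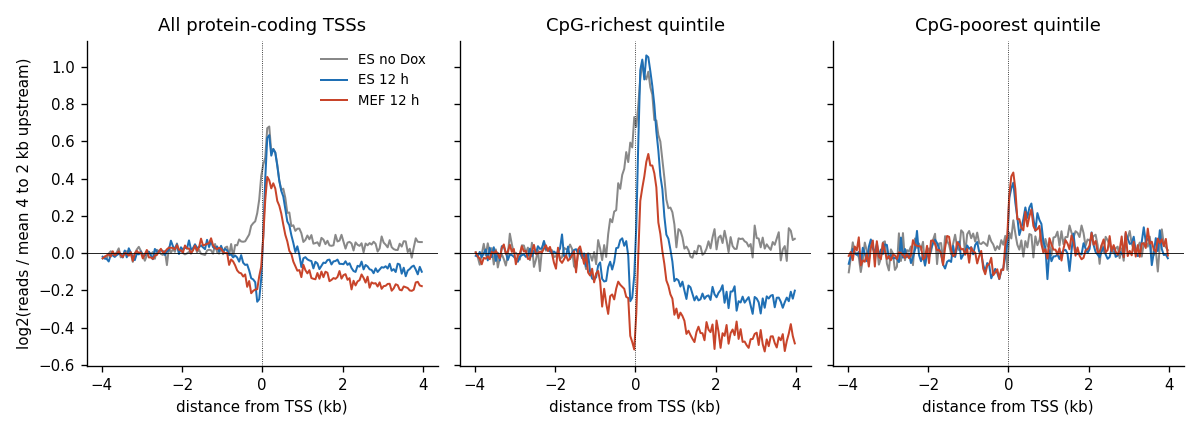
log2 of reads in bins of 50 bp over the mean from 4 to 2 kb upstream (y axis) by distance from the TSS in kb (x axis), for ES cells and MEFs at 12 hours and ES cells without Dox. The MEF line is the lowest downstream of all TSSs and of the CpG-richest quintile (-0.45 from 2 to 4 kb), and the ES and MEF lines overlap at the CpG-poorest quintile.

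Ratios of the body and the promoter of the same gene correlated with r = 0.629 over 10227 genes, which share reads near the TSS. Of these genes 743 had a MEF-higher promoter and 158 a MEF-higher body, with 101 in common. ES-higher promoters numbered 2003 and ES-higher bodies 386, with 211 in common, and 1 gene was called in opposite directions. Over all promoters kept 7.18% were MEF-higher and 19.2% ES-higher, and over all bodies 1.04% and 4.28%. As body and promoter share reads, the overlaps and the rarity of opposite calls are partly built in.

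Gene families and functional lists were then compared, 35 in all, each against the medians of all genes kept, -0.42 for bodies and -0.28 for promoters. The median over gene bodies was above 0 in 9 lists and above that of all genes in 21, and for promoters in 20 and 23. These are descriptions, since the lists were not tested, and their counts are to be read against the shares of all genes called, 1.04% MEF-higher and 4.28% ES-higher for bodies and 7.18% and 19.2% for promoters.

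Over bodies, the highest median belonged to the keratin-associated proteins, which build the matrix of hair and lie in clusters. Over promoters their median was 0.45, below those of the prolactin family (0.59 over 8 promoters), neural transcription factors (0.59), neuronal adhesion genes (0.54) and bitter taste receptors (0.47 over 4 promoters). Of the 17 gene bodies kept, of 46 members, 9 were MEF-higher and 1 ES-higher, with a median of 1.07 (quartiles 0.37 and 1.42). Short genes could be kept through their MEF reads alone, and with the reads of all 46 members summed the log2 ratio was 0.60. Krtap1-4 on chromosome 11 had 1.77 RPM per kb in ES cells and 6.47 in MEFs, with 1.04 without Dox (18 and 74 reads, log2 ratio 1.81, 1.11 to 2.70), and Krtap4-7 had 1.43 and 4.30 (1.55, 0.91 to 2.31). Krtap9-5 went the other way at -1.17 (-2.14 to -0.34). With anti-MacroH2A2 the median of these bodies was -0.02, close to 0, where all bodies had -0.38. Members of the family resemble each other in sequence, so that reads can be shared among them.

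The prolactin family, hormones of the pituitary and placenta and genes whose symbols begin with Prl, had a median of 0.76 over 26 bodies, 6 of them MEF-higher and 0 ES-higher. Summed reads of these bodies gave 0.39 (0.31 to 0.47), and their anti-MacroH2A2 median was 0.31. Over its 8 promoters the median was 0.59 at 12 hours, 0.91 at 6 hours, 0.03 at 3 hours and -0.04 with anti-MacroH2A2. The median level of the 26 bodies was 0.269 RPM per kb in ES cells, 0.421 in MEFs and 0.461 without Dox, so that both cell types lay below the no-Dox level. Prl7a2 had 31 reads in ES cells and 95 in MEFs (1.42, 0.85 to 2.08), and Prlhr, the gene of a receptor, 31 and 90 (1.34, 0.77 to 2.01). Keratins reached 0.20 over bodies and 0.37 over promoters, with Krt81 at 1.34 (0.90 to 1.84). With anti-MacroH2A2 their medians were below 0, at -0.26 and -0.46, where all genes had -0.38 and -0.78.

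Next over bodies came the neural transcription factors, whose promoter median was about equal to that of the prolactin family. Neural transcription factors had a median of 0.39 over 34 bodies, with 4 MEF-higher, and of 0.59 over 27 promoters, with 7 MEF-higher and 0 ES-higher in each case. With anti-MacroH2A2 the medians of these bodies and promoters were below 0, at -0.25 and -0.57, but above those of all genes, -0.38 and -0.78. At 3 hours the promoter median was 0.17, or -0.07 over the promoters kept by their 3 hour reads. The body of Lhx2, a factor of forebrain and eye development, had 309 reads in ES cells and 564 in MEFs (0.70, 0.50 to 0.90), while that of Myt1 stood at -0.71 (-0.93 to -0.49). The no-Dox level of this list was 0.469 RPM per kb over bodies, the ES level 0.603 and the MEF level 0.861.

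Genes of neuronal adhesion and the synapse, 52 members, had a median of 0.54 over 26 promoters, with 8 MEF-higher and 1 ES-higher, but 0.02 over 49 bodies with 0 called in either direction. Promoters could be kept through their MEF reads alone. Summed reads gave 0.58 over the promoters kept and 0.42 over all members outside discarded tiles. The 26 promoters had a median of 0.27 at 3 hours and, below 0, of -0.41 with anti-MacroH2A2, where all promoters had -0.78. The promoter of Dpp10 had 8 reads in ES cells and 34 in MEFs (1.79, 0.78 to 3.24), whereas that of Nlgn2 had 24 and 6 (-2.01, -3.75 to -0.84). Over bodies, Lrrtm3 stood at 0.79 (0.67 to 0.91) and Dpp6 at -0.79 (-0.84 to -0.73). Muscle genes and genes of spermatogenesis had promoter medians of 0.32 and 0.28, with 4 of 29 and 6 of 31 MEF-higher and 0 ES-higher.

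Hox genes, which set position along the body axis, were close to equal as a group, at -0.04 over 40 bodies and 0.07 over 35 promoters, yet above the median of all genes. Members differed: Hoxd12 had 34 reads in ES cells and 77 in MEFs over its body (0.99, 0.41 to 1.64), and Hoxb3 292 and 262 (-0.32, -0.57 to -0.08).

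Pluripotency genes had medians above those of all genes: 0.11 over 33 bodies and 0.25 over 29 promoters, with 7 MEF-higher and 2 ES-higher promoters. The promoter of Pou5f1, the gene of Oct4, had 18 reads in ES cells and 49 in MEFs (1.23, 0.47 to 2.14), and that of Lin28b 10 and 29 (1.28, 0.29 to 2.57), and Klf4, which fibroblasts also express, had 18 and 8 (-1.25, -2.75 to -0.07). The Pou5f1 promoter stood at 2.50 RPM per kb in ES cells at 3 hours and 0.874 at 12 hours, and at 2.23 and 2.12 in MEFs. For the list, the promoter median was -0.54 at 3 hours (-0.39 for all genes) and -0.05 at 6 hours (-0.33 for all genes). Its sign at 12 hours was therefore not that of the earlier libraries. The body median was likewise below 0 at 3 hours (-0.86, against -0.64 for all genes), at 6 hours (-0.13, against -0.42) and with anti-MacroH2A2 (-0.15, against -0.38). Relative to all genes, both medians of the list were lower at 3 hours and higher at 6 hours.

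Genes of fibroblasts and mesenchyme had a median of -0.53 over 47 bodies, below that of all genes, and of -0.17 over 21 promoters, above it. The body median was above that of all genes at 6 hours (-0.32 against -0.42) and at 3 hours (-0.22 against -0.64), and the promoter median was below it at 6 hours (-0.42 against -0.33), at 3 hours (-0.58 against -0.39) and with anti-MacroH2A2 (-1.10 against -0.78). Snai1, a regulator of the mesenchymal transition, had 135 reads in ES cells and 52 in MEFs over its body (-1.53, -2.04 to -1.07), and Timp2, an inhibitor of matrix proteases, 761 and 394 (-1.12, -1.30 to -0.94). Mmp3, a matrix protease gene, went the other way with 40 and 112 (1.29, 0.78 to 1.88). Collagens spread in both directions, with a body median of 0.04: Col15a1 and Col25a1 (0.87, 0.79 to 0.94) were higher in MEFs, while Col3a1 (-0.86, -1.18 to -0.56), Col5a2 (-0.90, -1.07 to -0.74) and Col1a1 were lower, and 22 bodies of the list were above 0 and 19 below.

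Housekeeping lists had medians below those of all genes. Genes of cytosolic ribosomal proteins had a median of -0.65 over 38 bodies and -0.58 over 32 promoters, where 11 were ES-higher and 1, that of Rpl10l, a copy active in testis, was MEF-higher (1.28, 0.29 to 2.57). Rps19 had 56 reads in ES cells and 24 in MEFs over its body (-1.36, -2.15 to -0.68). Mitochondrial ribosomal proteins reached -0.99 over 31 promoters, with 14 ES-higher and 0 MEF-higher, and subunits of the respiratory chain -0.72 and of the proteasome -0.83. At 3 hours the body medians of these 4 lists were -1.77, -1.46, -1.60 and -1.59, against -0.64 for all genes.

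Zinc finger genes named Zfp, many of which encode KRAB repressors in clusters, showed the same direction in larger number. Over 327 bodies the median was -0.62, with 35 ES-higher and 1 MEF-higher, that of Zfp474, and over 133 promoters -0.80, with 46 ES-higher and 3 MEF-higher. The median body level was 0.459 RPM per kb without Dox, 0.439 in ES cells and 0.280 in MEFs. At 3 hours the median log2 ratio of these bodies was -1.34, against -0.64 for all genes. Clustered protocadherins stood at -0.65 over 21 bodies, with 6 ES-higher and 0 MEF-higher. The genes of macroH2A, H3.3 and their chaperones were below 0 in 18 of 18 bodies (median -0.65), as were 13085 of all 17100 bodies, and 0 of the 18 were past the fold, among them Hira (683 and 421 reads, -0.87, -1.05 to -0.69).

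Large receptor families were measured poorly. Of 1081 olfactory receptor genes, which are short and lie in gene-dense clusters, 71 bodies and 185 promoters had enough reads, with medians of -0.56 and -0.41. Their average profile held a peak within 600 bp of the TSS relative to the upstream level, at 0.37 in ES cells and 0.25 in MEFs against 0.07 without Dox. The level within 600 bp was 0.406 RPM per kb in ES cells and 0.281 in MEFs, both below the 0.474 without Dox. Upstream levels were 0.313, 0.236 and 0.451. Summed over all members the bodies stood at -0.44 and the promoters at -0.53. Vomeronasal receptors had a median of -0.51 over 123 bodies, with 8 ES-higher (4.28% among all bodies) and 0 MEF-higher, and reads shared between near-identical members may be misplaced. A single bitter taste receptor body and 4 promoters were kept of 35 members.

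The remaining lists were as follows. Serpins, protease inhibitors with 59 members, had medians of 0.15 over 58 bodies and 0.44 over 28 promoters, with the body of Serpina9 at 1.06 (0.77 to 1.36). Summed reads gave 0.37 over the serpin promoters kept and 0.21 over those of all members. Potassium channel genes had 0.03 over 87 bodies and 0.27 over 79 promoters, with 8 MEF-higher (7.18% among all promoters) and 2 ES-higher promoters, and solute carriers -0.33 over 332 bodies. Leukocyte genes had -0.23 over 47 bodies, where Icos (0.90, 0.59 to 1.23) and Cd86 (-1.33, -1.52 to -1.14) marked the ends, and immediate early genes -0.35 over 25, with Egr4 at 1.10 (0.56 to 1.71) and Fos at -1.61 (-2.56 to -0.84). GABA and glutamate receptors, classical cadherins, Cyp and Ugt enzymes, NK cell receptors, beta-defensins and imprinted genes had body medians from -0.48 to -0.04. Replication-dependent histones had -0.69 over 6 bodies and -0.26 over 40 promoters.

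**Figure D5:**
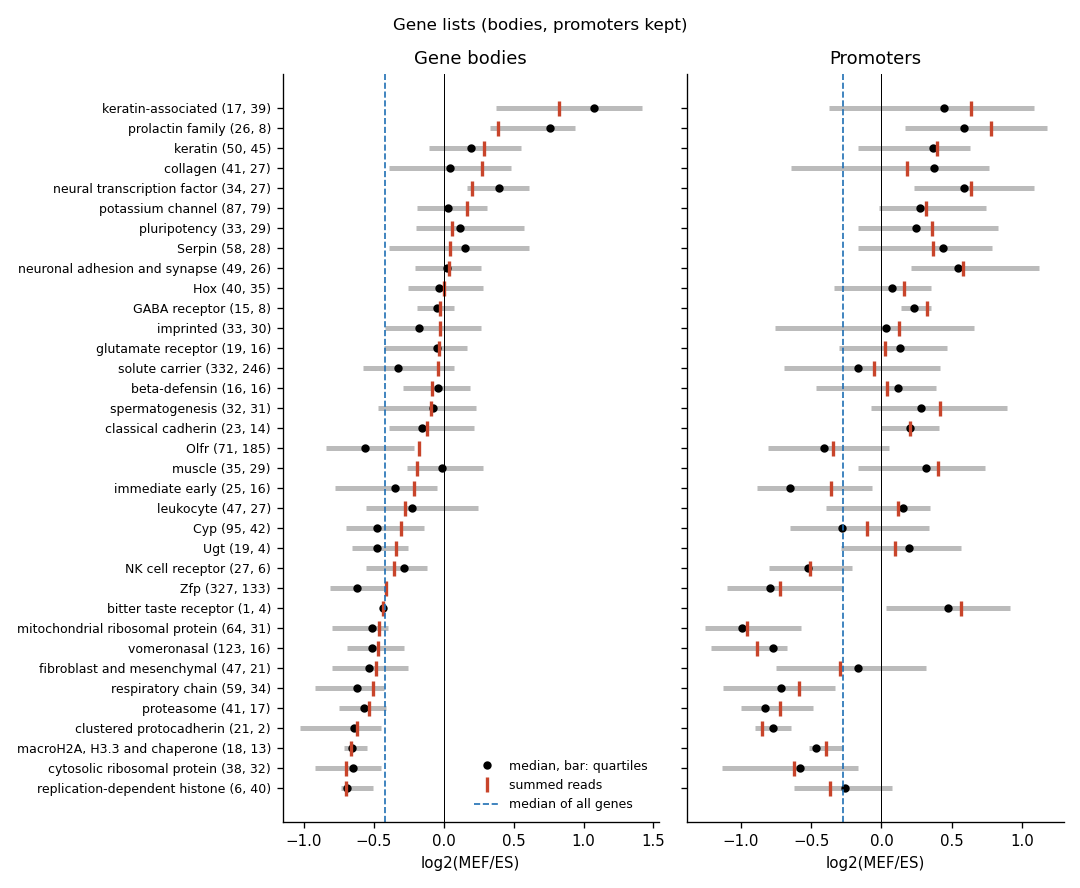
Median log2(MEF/ES) at 12 hours (points, with quartiles as grey bars) and the log2 ratio of summed reads (red ticks) for the 35 gene lists, over gene bodies (left) and promoters (right), with the numbers kept in brackets. The dashed line is the median of all genes, -0.42 for bodies and -0.28 for promoters. Keratin-associated genes lie farthest to the right over bodies, and mitochondrial ribosomal proteins farthest to the left over promoters.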

How the data were processed

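ChIP-Seq reads were aligned by the authors to mm9 with Bowtie 1.0, per the submitters' processing notes, with 1 location drawn at random for reads of several locations in the HA libraries. The deposited files list the mapped intervals (chromosome, start, end and strand), of 150 bp in HA libraries and 400 bp in anti-MacroH2A2 libraries, and the start and end coordinates are the values used. Distinct intervals on chromosomes 1 to 19 were counted by midpoint and scaled to RPM. Tiles in the top 1% of no-Dox reads were discarded, with the genes starting in them. Tiles needed 100 no-Dox reads, gene bodies 50 and promoters 20 reads in the 2 libraries compared. The log2 ratio had 1 read added to each count for tiles, bodies and promoters, and loci used summed reads.

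The text names the 10 loci with the largest summed log2 per direction, and the 10 bodies and 10 promoters per direction whose counting interval lay farthest from 0, at most 2 genes per Mb, with examples from the 3 highest and 3 lowest of each list by the same bound, and H2afy2 and Col1a1. Members and lists were chosen with earlier results of these data known. With 1 library per group no test was run, and 17 alternatives were tried, 3 of them (GC centring, tiles with few anti-MacroH2A2 reads left out, higher minimums) chosen after seeing the data. The scripts were tested on simulated data. HA-H3.3 libraries were not used here, and some genes of the lists are not reported here. Python 3.11.15, numpy 2.4.6, pandas 2.3.3, scipy 1.17.1 and matplotlib 3.10.9 were used.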

Additional observations from a re-analysis of the deposited data

Results flagged for a closer look

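The promoters of Neurod1 and Cerkl, which share a window, had opposite directions at different times. At 12 hours their log2(MEF/ES) was 2.69 and 2.64, and at 3 hours -0.49 and -0.71. The difference between time points was not tested, and the ES library at 12 hours held 3 reads in each window.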

How the results depend on the processing

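No paired analysis was possible because each group has 1 library, and no replicate could be left out. Counts are given as MEF-higher and ES-higher, beside 470 and 126 tiles, 178 and 732 bodies and 825 and 2206 promoters. Their shares were 1.98% and 0.53% of tiles, 1.04% and 4.28% of bodies and 7.18% and 19.2% of promoters. Tiles of 1 Mb gave 6 and 4 of 2389 (0.25% and 0.17%). A promoter window of 1000 bp gave 757 and 3493 of 18074 promoters (4.19% and 19.3%, against 7.18% and 19.2%). The 3 hour libraries gave 1127 and 1772 tiles (4.74% and 7.46%) and 486 and 6899 of 16775 bodies (2.90% and 41.1%). ES-higher promoters were 5613 of 11953 there (47.0%). A body median above 0 was found in 14 lists (9 at 12 hours). TSS values were 0.80 in ES cells and 0.27 in MEFs (0.19 and 0.08 at 12 hours). The median of neural transcription factor promoters was reversed (-0.072, with promoters kept by their 3 hour reads). The 6 hour libraries gave 517 MEF-higher promoters of 9865 (5.24%) and TSS values of 0.43 and 0.22. The anti-MacroH2A2 libraries gave 94 and 31 tiles (0.40% and 0.13%) and 30 MEF-higher bodies of 15835 (0.19%). They gave 72 and 3829 of 8841 promoters (0.81% and 43.3%) and 3 lists with a promoter median above 0 (20 at 12 hours). There, over the members kept by their anti-MacroH2A2 reads, the medians changed sign for keratin-associated bodies (-0.0017) and replication-dependent histone bodies (0.027). Over the 6 histone bodies kept at 12 hours the median was -0.60. Promoters of neural transcription factors (-0.54) and neuronal adhesion genes (-0.46) changed sign as well. All genes kept at 12 hours had anti-MacroH2A2 medians of -0.38 for bodies and -0.78 for promoters. With 5 reads added, promoters were 407 and 1367. Centring on GC content gave 677 and 66 tiles. Centring on chromosomes gave 725 and 71 tiles, 431 ES-higher bodies and 15 lists with a body median above 0. Centring on the median of each feature gave 733 and 55 tiles, 849 and 81 bodies, 1508 and 1251 promoters and 21 such lists. Counting every interval gave a TSS value of 0.17 in ES cells. A fold of 1.5 gave 2686 and 2330 tiles, 831 and 5545 bodies and 1971 and 4207 promoters. Minimums of 200 and 50 reads gave 64 and 210 of 11841 bodies (0.54% and 1.77%) and 173 and 43 of 1041 promoters (16.6% and 4.13%). No minimum gave 355 and 1503 of 20724 bodies (1.71% and 7.25%) and 4953 ES-higher promoters of 20746 (23.9%). The cause was not tested where the alternative itself does not give it. Promoter ratios rest on few reads, a difference between 2 libraries cannot be told apart from one between cell types, and the background of the antibody in MEFs was not measured here.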
